A study of Mus musculus with 18 samples.

Results

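The transcriptome of mouse embryonic stem cells (ESCs) exposed to 100 nM of Δ9-tetrahydrocannabinol (Δ9-THC) was compared with that of ESCs exposed to the vehicle. The comparison held 3 Δ9-THC and 3 vehicle libraries, chosen by their labels, which are 6 of the 18 samples of the study, and covered all 13104 genes in the count table of the ESCs. The other samples were epiblast-like cells (EpiLCs) and primordial germ cell-like cells with the same pair of exposures. Both groups of ESCs carried the germline reporters Blimp1::mVenus and Stella::ECFP, were grown without serum with LIF and inhibitors of MEK and GSK3, and had their RNA selected for poly(A) tails. The study's methods describe a female and a male clone of this reporter line. The paper reports that its proliferation data came from female ESCs, with male ESCs in a supplement. The labels name the 3 replicates of a group as biological replicates without saying which clone gave them. The vehicle was the ethanol in which Δ9-THC was dissolved, and no other agent or dose is among the libraries of ESCs.

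Δ9-THC is the main psychoactive compound of cannabis and acts on the G protein-coupled receptors CB1 and CB2, while at higher exposure it also reaches ion channels, nuclear receptors and mitochondria. ESCs kept with LIF and the inhibitors of MEK and GSK3 hold a ground state of naive pluripotency, in which Oct4 (Pou5f1), Sox2 and Nanog work with Klf and Esrrb factors. Such cells divide quickly, with a short G1 phase, and draw on both glycolysis and respiration. The question the comparison addresses is which genes changed with Δ9-THC in ESCs.

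The 6 libraries held between 24103915 and 32096698 counts, and no gene had fewer than 82 counts in all. In such bulk samples, fewer cells of a type and less RNA per cell cannot be told apart. The deposited counts had been batch-adjusted with ComBat-seq, and same-numbered Δ9-THC and vehicle libraries mirrored each other in them: the deviations of a library and its same-numbered partner from their group means correlated across genes at -0.987, -0.979 and -0.977 for replicates 1, 2 and 3. Deviations of libraries of different groups and different numbers correlated at 0.369 to 0.604. Positive values there follow from the mirroring, since the deviations sum to 0 within each group, and are no separate observation. Because of the mirroring, the tests kept the replicate number as a block, and each Δ9-THC library was also set against its partner. The differences within the pairs shared little across genes, with correlations of -0.050 between pairs 1 and 2, 0.039 between pairs 1 and 3 and 0.30 between pairs 2 and 3, which are across genes and not across independent replicates.

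The cells carried the markers of naive ESCs in both groups. The summed level of the 14 naive pluripotency factors was 4974 to 5347 CPM (counts per 1e6 counts of the library, scaled by TMM) with vehicle and 4880 to 5238 with Δ9-THC. The 11 core pluripotency factors summed to 3361 to 3406 CPM with vehicle and 3309 to 3322 with Δ9-THC. The primitive endoderm list summed to 110 to 127 CPM with vehicle and 90.2 to 107 with Δ9-THC, and its defining factors Gata6, Sox17, Sox7, Pdgfra and Foxa2 were not among the genes tested. Trophectoderm markers summed to 90.8 to 108 CPM with vehicle and 91.8 to 107 with Δ9-THC, without Cdx2, Elf5 or Gata3 among the genes tested. The sums of the neural and mesoderm markers were 72.7 to 76.6 CPM with vehicle and 67.9 to 71.5 with Δ9-THC, those of the fibroblast markers 13.5 to 15.8 and 13.8 to 16.1, and those of the two-cell-like markers 7.004 to 8.83 and 8.13 to 10.1.

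With Δ9-THC, 5 genes rose and none fell in edgeR's quasi-likelihood test with the replicate block, at an adjusted p of at most 0.05 over all 13104 genes (0.0382% of genes). They were Lars2, the leucyl-tRNA synthetase of mitochondria, mt-Tp, the mitochondrial proline tRNA, Malat1, an abundant long noncoding RNA of nuclear speckles, and 2 genes known here only by their identifiers, ENSMUSG00000119584 and ENSMUSG00002076161. At an unadjusted p under 0.05, 809 genes were higher (6.17%) and 645 lower (4.92%), most of them by little: the median size of their log2(fold-change) was 0.25, against 0.10 over all genes, and 205 of them were beyond 0.5 in either direction. DESeq2 with the same block called 9 genes higher and 1 lower. Without the block, edgeR called 441 genes higher (3.37%) and 465 lower (3.55%), and of these 906 genes 208 did not reach an unadjusted p of 0.05 once the block was in the fit.

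Several of the genes with the largest increases are short or share sequence with another gene, and the sequences are shown for that reason. The mature miR-6236, from a hairpin on chromosome 9, is shown with its seed (bases 2 to 8) in capitals, as given by RefSeq for GRCm38.p6 at chr9:110281353-110281371 on the plus strand. The gene of the proline tRNA is shown 5′ to 3′ as it stands in GENCODE M21 on the minus strand of the mitochondrial genome, at chrM:15356-15422 of GRCm38, in lower case throughout.
mmu-miR-6236: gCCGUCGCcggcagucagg
mt-Tp: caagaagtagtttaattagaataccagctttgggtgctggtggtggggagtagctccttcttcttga
Lars2 (chromosome 9, 123366927 to 123462666, plus strand, GRCm38) and the noncoding gene Gm15564 (chromosome 16, 35966752 to 35983230, minus strand) shared a run of 52 identical bases on the same strand. The run lies in the 3′UTR of the Lars2 transcript, and its middle 30 bases begin at base 3289 of 3894 there and at base 190 of 402 in the Gm15564 transcript. No other transcript of GENCODE M21 held these 30 bases on the same strand, and none held their reverse complement. ENSMUSG00000119584 and ENSMUSG00002076161 have no entry there, so the search could not cover them. Only uniquely mapped reads were kept, so that read pairs fitting both genes equally would have been counted for neither. The part of shared sequence in the counts of either gene was not tested.

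The largest increase among the 5 genes was that of ENSMUSG00000119584, which has no entry in the annotation used here. Its level was 5969, 4682 and 6337 CPM in vehicle replicates 1 to 3 and 26439, 32565 and 24903 CPM in the same-numbered Δ9-THC replicates. Each Δ9-THC library was thus above every vehicle library, and the gene took 2.46% to 3.19% of all counts with Δ9-THC against 0.477% to 0.639% with vehicle. The part of this share in the other results was not tested. The log2(fold-change) was 2.31 ± 0.13 (SE), a 4.94-fold increase, with an adjusted p of 3.76e-06. The other gene without an entry, ENSMUSG00002076161, had 2.68, 2.30 and 3.43 CPM with vehicle and 8.46, 9.34 and 7.002 CPM with Δ9-THC, again with no overlap. It rose by 1.56 ± 0.20 on the log2 scale (adjusted p = 0.0163).

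Lars2, which charges the leucine tRNA inside mitochondria, was at 162, 139 and 209 CPM with vehicle and at 492, 556 and 366 CPM with Δ9-THC. The lowest Δ9-THC library was above the highest vehicle library. The log2(fold-change) was 1.47 ± 0.16 (2.77-fold, adjusted p = 0.0027), and the within-pair differences were 1.60, 2.00 and 0.81. The run shared with Gm15564 lies in the 3′UTR of Lars2. Where along Lars2 its reads lay was not tested, so the counts do not show which part of the transcript rose. Of the 38 aminoacyl-tRNA synthetases measured, Lars2 was the one member that passed the adjusted test. Among the others at an unadjusted p under 0.05, Dars was higher (0.15) and Vars2 (-0.24), Wars (-0.22) and Vars (-0.15) were lower. The median of the list was -0.033, beside 0.0038 over all genes.

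Mir6236, the host of the miRNA printed above, held 2.77, 2.23 and 2.90 CPM with vehicle and 5.95, 6.89 and 5.74 CPM with Δ9-THC. The groups did not overlap, and the log2(fold-change) of 1.24 ± 0.20 missed the threshold (adjusted p = 0.0745). Gm15564 had 2.01, 1.86 and 1.91 CPM with vehicle against 4.36, 4.58 and 4.53 with Δ9-THC. Its groups were apart by more than any spread within them, while the log2(fold-change) of 1.22 ± 0.21 had an adjusted p of 0.109. Mir6236 lies 13085518 bases from Lars2 on the same chromosome, so that the pair is not one locus.

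The mitochondrial genome encodes subunits of the respiratory chain and the RNAs that translate them. mt-Tp was at 6.58, 3.50 and 3.92 CPM with vehicle and at 11.8, 18.6 and 17.9 CPM with Δ9-THC. No library of one group fell within the other, and mt-Tp rose by 1.79 ± 0.24 on the log2 scale (3.45-fold, adjusted p = 0.0163). It did not pass without replicate 3 (1.59, adjusted p = 0.478) or with offsets for GC content and length (1.46, adjusted p = 0.137). mt-Nd6, a subunit of complex I and the one protein that the mitochondrial genome encodes on the same minus strand as mt-Tp, had 323, 301 and 279 CPM with vehicle and 366, 395 and 424 CPM with Δ9-THC. The groups were apart, with a log2(fold-change) of 0.39 ± 0.08 (adjusted p = 0.392) that came to 0.04 with the GC content and length offsets. Because strand was ignored in the counting, reads of the opposite strand at these genes cannot be told apart from their own.

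The ribosomal RNAs of mitochondria, added here after their values were seen, gave 0.47 for mt-Rnr1 (adjusted p = 0.351) and 0.16 for mt-Rnr2 (adjusted p = 0.482). Of the 10 measured protein genes on the mitochondrial genome, 8 were higher (51.1% of all genes were). Of these, 2, mt-Nd6 and mt-Co3 (0.61), had an unadjusted p under 0.05, beside 6.17% of all genes. The median of the 10 genes was 0.11, with medians of -0.031, 0.067 and 0.25 in pairs 1, 2 and 3. After the GC content and length offsets it was -0.083. In that fit none were higher and 3 were lower at an unadjusted p under 0.05, beside 342 and 318 of 13083 genes. These genes have a median GC content of 37.4%, against 49.7% over all genes.

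Malat1 was at 162, 159.6 and 167 CPM with vehicle and at 219, 223 and 214 CPM with Δ9-THC, without overlap. It rose by 0.42 ± 0.06 on the log2 scale (1.34-fold, adjusted p = 0.0404). The call was lost without replicate 2 (0.40, adjusted p = 0.406), without replicate 3 (0.45, adjusted p = 0.276) and with the GC content and length offsets (0.34, adjusted p = 0.365). DESeq2 with the block also called Malat1 (adjusted p = 5.31e-05).

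**Figure D1:**
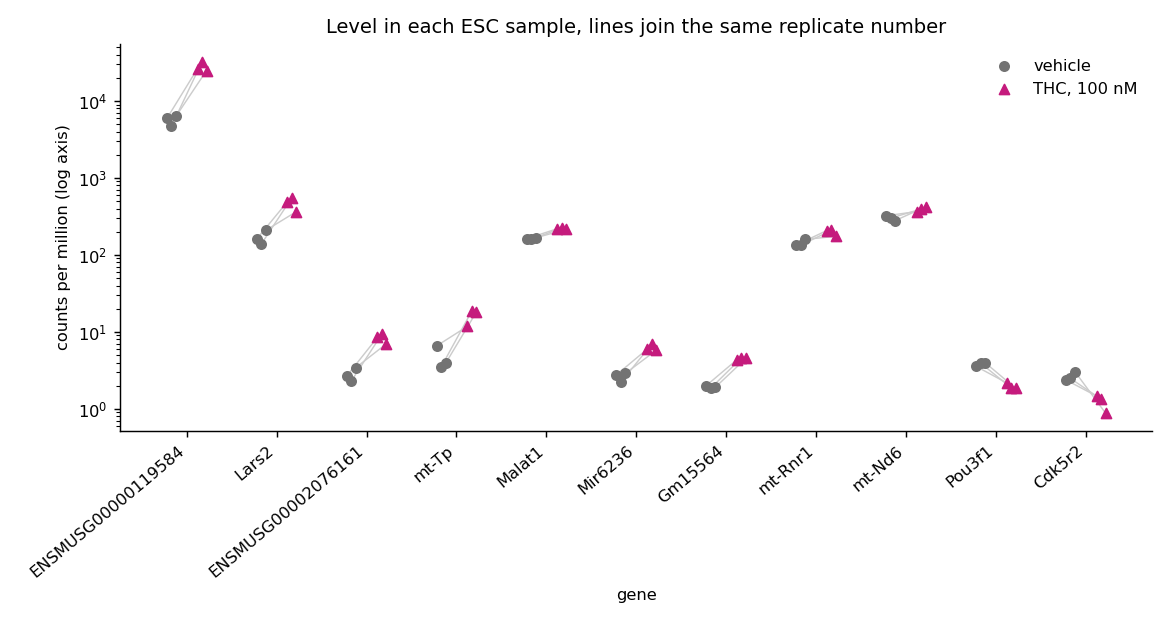
Levels in CPM (vertical log axis) of 11 genes (horizontal axis) in the 3 vehicle (grey circles) and 3 Δ9-THC libraries (magenta triangles), with lines that join the same replicate number. In 9 of the genes, from the 4.94-fold increase of ENSMUSG00000119584 to the 1.31-fold one of mt-Nd6, every Δ9-THC point lies above every vehicle point, and in Pou3f1 and Cdk5r2 every one lies below.

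Malat1 belongs to a list of 29 measured nuclear long noncoding RNAs and host genes of small nucleolar RNAs, transcripts that stay in the nucleus or are spliced to release guides of ribosomal RNA modification. Of these, 27 were higher with Δ9-THC (51.1% of all genes were), 10 with an unadjusted p under 0.05 (6.17% of all genes), and the other 2, Mirg and Meg3, were lower with an unadjusted p under 0.05. The list had a median of 0.23, beside 0.0038 over all genes, and the pair medians were 0.011, 0.36 and 0.20, so that pair 1 showed next to nothing. Snhg1, the host of several box C/D snoRNAs, had 68.3, 59.1 and 62.4 CPM with vehicle and 72.6, 83.8 and 80.3 CPM with Δ9-THC (log2(fold-change) 0.32, unadjusted p = 0.0030). The members Zfas1 (0.43), Snhg5 (0.36), Kcnq1ot1 (0.52), Snhg14 (0.55) and Tug1 (0.29), chosen after their values were seen, had unadjusted p-values between 0.0065 and 0.0172. Mirg (-0.68) and Meg3 (-0.33), transcripts of the imprinted Dlk1-Dio3 domain, went the other way. With the GC content and length offsets the median was 0.15. In that fit 5 members were higher and 2 lower at an unadjusted p under 0.05, beside 342 and 318 of 13083 genes.

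Among genes with a mean of at least 50 counts over the libraries, an unadjusted p of at most 0.05 and no overlap between the groups, the largest increases beside those above were Gt(ROSA)26Sor (1.13), AC166172.1 (0.95), Gm48691 (0.88) and Sms-ps (0.85). Gt(ROSA)26Sor, the noncoding RNA of the Rosa26 locus used for transgenes, had 1.58, 1.75 and 1.20 CPM with vehicle and 3.18, 3.01 and 3.77 CPM with Δ9-THC. Every Δ9-THC library was above every vehicle library, yet the adjusted p was 0.414. Groups that do not overlap were common in this table: 2192 genes (16.7%) had all Δ9-THC libraries higher and 2086 (15.9%) had all lower, in libraries whose deviations mirror each other within pairs. The part of the batch adjustment in these counts was not tested.

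No decrease passed the test. Cdk5r2, an activator of the neuronal kinase Cdk5, had 2.38, 2.48 and 3.04 CPM with vehicle and 1.47, 1.34 and 0.881 CPM with Δ9-THC. The difference of -1.09 on the log2 scale had an adjusted p of 0.414, and the groups did not overlap. Pou3f1 (Oct6), a POU factor that marks the exit from naive pluripotency, had 3.56, 3.94 and 3.99 CPM with vehicle and 2.18, 1.87 and 1.84 with Δ9-THC. Its groups were far apart relative to their spread, at -0.96 (unadjusted p = 0.000727, adjusted p = 0.414). Of the 15 measured formative and primed epiblast genes, Pou3f1 among them, 7 were higher and 8 lower (51.1% of all genes were higher). Their median was -0.016, and 0.055 with the GC content and length offsets. H1fx, a linker histone, was lower in each pair, from 8.04, 11.2 and 9.61 CPM to 6.66, 4.32 and 5.41 CPM (-0.82). The remaining decreases chosen by size were Gm5617 (-0.84), the homeobox gene Six5 (-0.80), Igfbpl1 (-0.77), the lysosomal enzyme gene Naglu (-0.76), Cebpb (-0.76), the synaptic scaffold gene Caskin1 (-0.71) and the metalloprotease gene Mmp28 (-0.71). Pou3f1, Cdk5r2 and H1fx have GC contents of 63.9%, 63.9% and 71.3%.

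**Figure D2:**
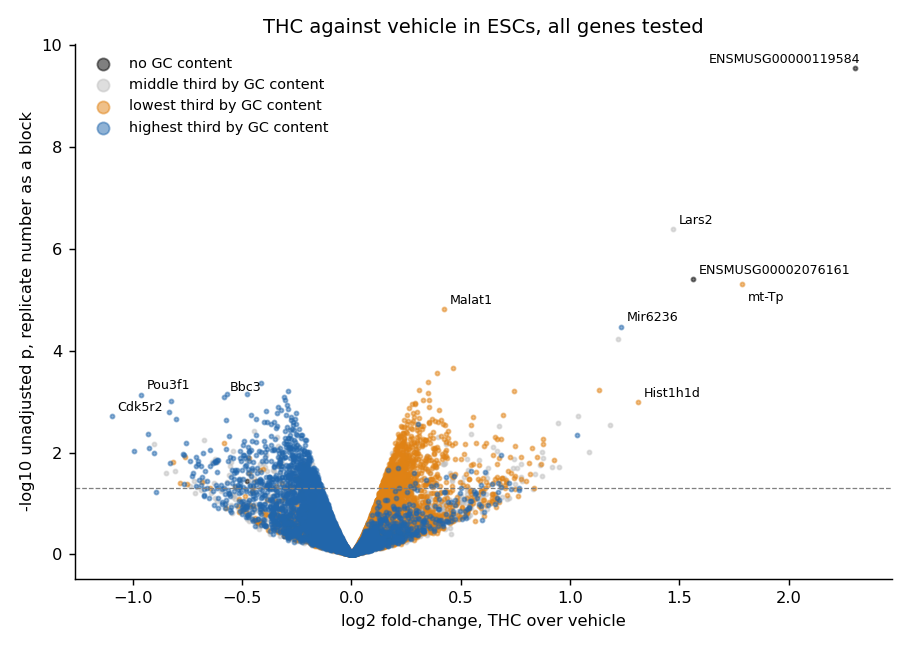
Each of the 13104 genes by its log2(fold-change) with Δ9-THC (horizontal axis) and its unadjusted p in the blocked fit (vertical axis, -log10 scale, dashed line at 0.05), coloured by GC content in 3 equal groups, with genes of no known GC content in dark grey. The 5 genes that passed the adjusted test have the smallest p-values and lie on the right, GC-poor genes (orange) crowd the right and GC-rich genes (blue) the left.

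The change with Δ9-THC varied with the GC content of the genes. Across 13083 genes with a known GC content, Spearman's rho between GC content and log2(fold-change) was -0.537, and it was -0.312, -0.243 and -0.50 within pairs 1, 2 and 3. In the lowest of 10 equal groups of genes by GC content (30.8% to 41.2%) the median log2(fold-change) was 0.16, with 376 genes higher and 1 lower at an unadjusted p under 0.05. In the highest group (57.8% to 75.5%) the median was -0.14, with 3 genes higher and 252 lower. Genes higher at that p had a median GC content of 41.6%, and genes lower one of 56.7%.

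Offsets that remove a smooth trend with GC content and gene length from each library left a rho of 0.002 and medians between -0.0045 and 0.0084 in all 10 groups of genes by GC content. With them 1 of the 13083 genes passed the adjusted test (0.00764%), namely Lars2 (1.51, adjusted p = 0.000932). At an unadjusted p under 0.05 there were 660 genes (5.04%), 342 higher and 318 lower. Of the 1451 genes with a GC content that had an unadjusted p under 0.05 in the main fit, 1413 kept their sign with the offsets and 417 kept such a p. ENSMUSG00000119584 and ENSMUSG00002076161 have no known GC content and were not part of this fit.

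**Figure D3:**
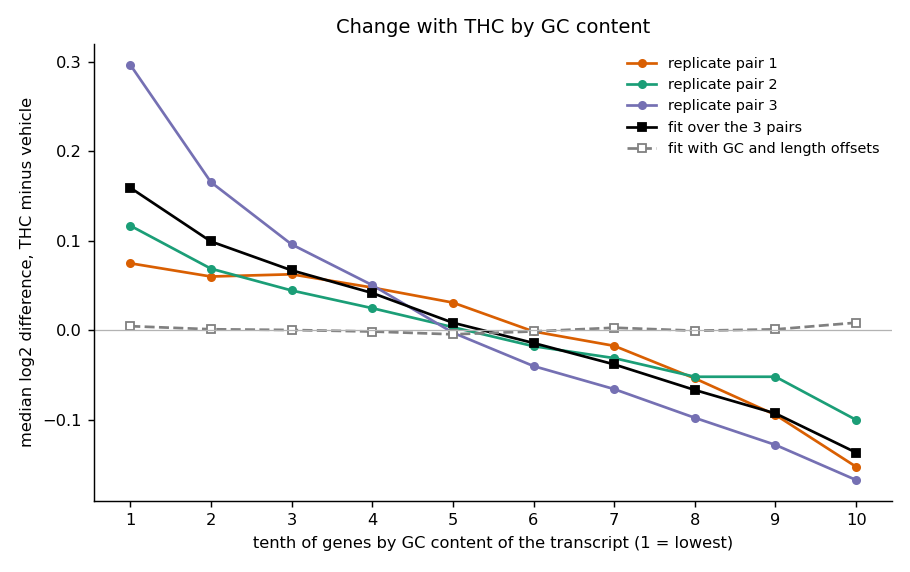
Median log2 difference between Δ9-THC and vehicle (vertical axis) in 10 equal groups of genes ordered from low to high GC content (horizontal axis), for each replicate pair, for the blocked fit and for the fit with GC content and length offsets (dashed). All 3 pairs slope downward, from a fitted median of 0.16 at the AT-rich end to -0.14 at the GC-rich end, and the line with offsets is flat.

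Several gene lists with medians away from 0 had a low or high GC content. Of 327 zinc finger protein genes, many of them KRAB repressors of transposable elements, 53 were higher and 12 lower at an unadjusted p under 0.05, beside 6.17% and 4.92% of all genes. Their median was 0.085 at a median GC content of 43.9%, and it was 0.022 with the offsets, where 11 were higher and 5 lower. Over all 13083 genes in the fit with the offsets, 342 were higher and 318 lower at that p. These are the background for this and the later counts with the offsets. Zfp979 had 136, 120.2 and 90.5 CPM with vehicle and 142, 163 and 204 CPM with Δ9-THC (0.56, unadjusted p = 0.0020). Its pairs differed by 0.068, 0.44 and 1.17, with almost no difference in pair 1, and its GC content is 34.6%.

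Splicing factors gave 12 higher and 2 lower of 66 at that p, beside 6.17% and 4.92% of all genes, with a median of 0.043 beside 0.0038. The SR proteins Srsf1 and Srsf3, which bind exonic enhancers, were among them. Srsf1 had 525, 525 and 475 CPM with vehicle and 597, 599 and 662 CPM with Δ9-THC (0.28, unadjusted p = 0.0020), and Srsf3 had 571, 585 and 582 against 687, 673 and 679 CPM (0.23, unadjusted p = 0.0031). Neither gene overlapped between the groups, and neither passed the adjusted test. With the offsets the median of the list was -0.0081, with 3 higher and 1 lower.

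Matrix and adhesion genes lay on the GC-rich side. Of 34 collagens, laminins and integrins, 11 were lower and none higher at an unadjusted p under 0.05, beside 4.92% and 6.17% of all genes, with a median of -0.17 that was negative in each pair (-0.18, -0.27 and -0.11). Col9a2, a chain of the cartilage collagen IX, had 59.7, 58.8 and 58.3 CPM with vehicle and 47.0, 47.9 and 48.6 CPM with Δ9-THC (-0.30, unadjusted p = 0.0019). The basement membrane collagen gene Col4a1 had 9.07, 8.97 and 8.16 CPM with vehicle and 6.03, 6.16 and 6.88 CPM with Δ9-THC (-0.46, unadjusted p = 0.0088), and it counts among the primitive endoderm markers too. Those markers, whose sums did not overlap between the groups, had 3 of 7 measured members lower at an unadjusted p under 0.05 (Col4a1, Col4a2 and Lama1, all in both lists), and their part in the result was not tested. Of 45 axon guidance genes 9 were lower and none higher, beside the same shares of all genes, with a median of -0.18. The semaphorin receptor gene Plxna1 had 107, 109 and 102 CPM with vehicle against 84.2, 83.3 and 89.5 CPM with Δ9-THC (-0.30, unadjusted p = 0.00093). The median GC content was 57.8% for the first list and 56.8% for the second, and with the offsets their medians were -0.063 and -0.089. At an unadjusted p under 0.05 the offsets left 2 lower and 1 higher of the first list and 3 lower of the second.

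Of 26 genes of cholesterol synthesis and uptake, 6 were lower and 1 higher at an unadjusted p under 0.05, beside 4.92% and 6.17% of all genes, with a median of -0.12 and pair medians of -0.033, -0.20 and -0.084. Srebf2, the transcription factor that drives this pathway when sterols are scarce, had 336, 353 and 342 CPM with vehicle and 294, 279.9 and 291 CPM with Δ9-THC (-0.25, unadjusted p = 0.0017). Dhcr7, the last enzyme of one branch of the synthesis, had 116, 119.9 and 117 CPM against 105, 102 and 105 CPM (-0.18, unadjusted p = 0.0167). With the offsets the median of the list was -0.047, and 4 genes were lower.

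Replication-dependent histones, which are made in S phase and lack poly(A) tails, had a median of 0.42 over 11 genes, with pair medians of 0.69, 0.040 and 0.23. Hist1h1d, a linker histone, had 0.579, 0.511 and 0.671 CPM with vehicle and 1.47, 1.57 and 1.34 CPM with Δ9-THC (1.31, unadjusted p = 0.0010). Hist1h3e had 0.670, 0.657 and 0.671 CPM against 1.38, 1.37 and 1.34 CPM (1.03, unadjusted p = 0.0044). Both genes were apart between the groups at a low level, and neither passed the adjusted test. The list's median with the offsets was 0.35.

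Lists of proliferation genes had medians close to 0. Of 38 S-phase genes 2 were higher and none lower at an unadjusted p under 0.05, with a median of 0.012, and of 42 mitosis genes 4 were higher and 1 lower, with a median of 0.032. These counts are close to the shares over all genes, 6.17% higher and 4.92% lower. Among G1 cyclins and inhibitors, Ccne2, a partner of Cdk2 at the entry into S phase, had 18.8, 15.5 and 16.8 CPM with vehicle and 20.7, 24.9 and 23.4 CPM with Δ9-THC (0.43, unadjusted p = 0.0029). Ccnd3, a D-type cyclin, had 266, 263 and 285 CPM against 230.2, 234 and 216 CPM (-0.26, unadjusted p = 0.0022). With the offsets these came to 0.21 and -0.14.

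Among metabolic lists, the 21 measured genes of glucose transport and glycolysis had a median of 0.040. At an unadjusted p under 0.05, 1 was lower (Pfkm, -0.18) and none higher, beside 4.92% and 6.17% of all genes. With the offsets 3 were higher, beside 342 of 13083 genes. The pair medians of the glycolysis list were -0.14, 0.20 and -0.021. Of its genes, 20 were lower in pair 1, where 50.6% of all genes were higher. In pair 2, 16 were higher, beside 50.9% of all genes. The 75 nuclear genes of the respiratory chain had a median of -0.018, with 1 higher and 4 lower at that p. The 84 cytosolic ribosomal proteins had one of -0.048, with none higher and 5 lower. For both lists the share of lower genes is close to the 4.92% of all genes, and that of higher genes is under the 6.17% of all genes. By sign alone, 41.3% of the respiratory chain genes and 23.8% of the ribosomal proteins were higher, beside 51.1% of all genes. These lists shifted between the pairs as well: the respiratory chain medians were 0.17, -0.0071 and -0.23, and those of the ribosomal proteins 0.16, -0.095 and -0.22, in pairs 1, 2 and 3. The part of the mirroring of same-numbered libraries in the shifts of these lists and of the glycolysis list was not tested. In pair 1, 75 of the 84 ribosomal proteins were higher with Δ9-THC, while in pair 3, 79 were lower. Mat2a, which makes the methyl donor S-adenosylmethionine, had 198, 192 and 181 CPM with vehicle and 222, 230.2 and 244 CPM with Δ9-THC (0.29, unadjusted p = 0.0010, adjusted p = 0.414). Its groups did not overlap.

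**Figure D4:**
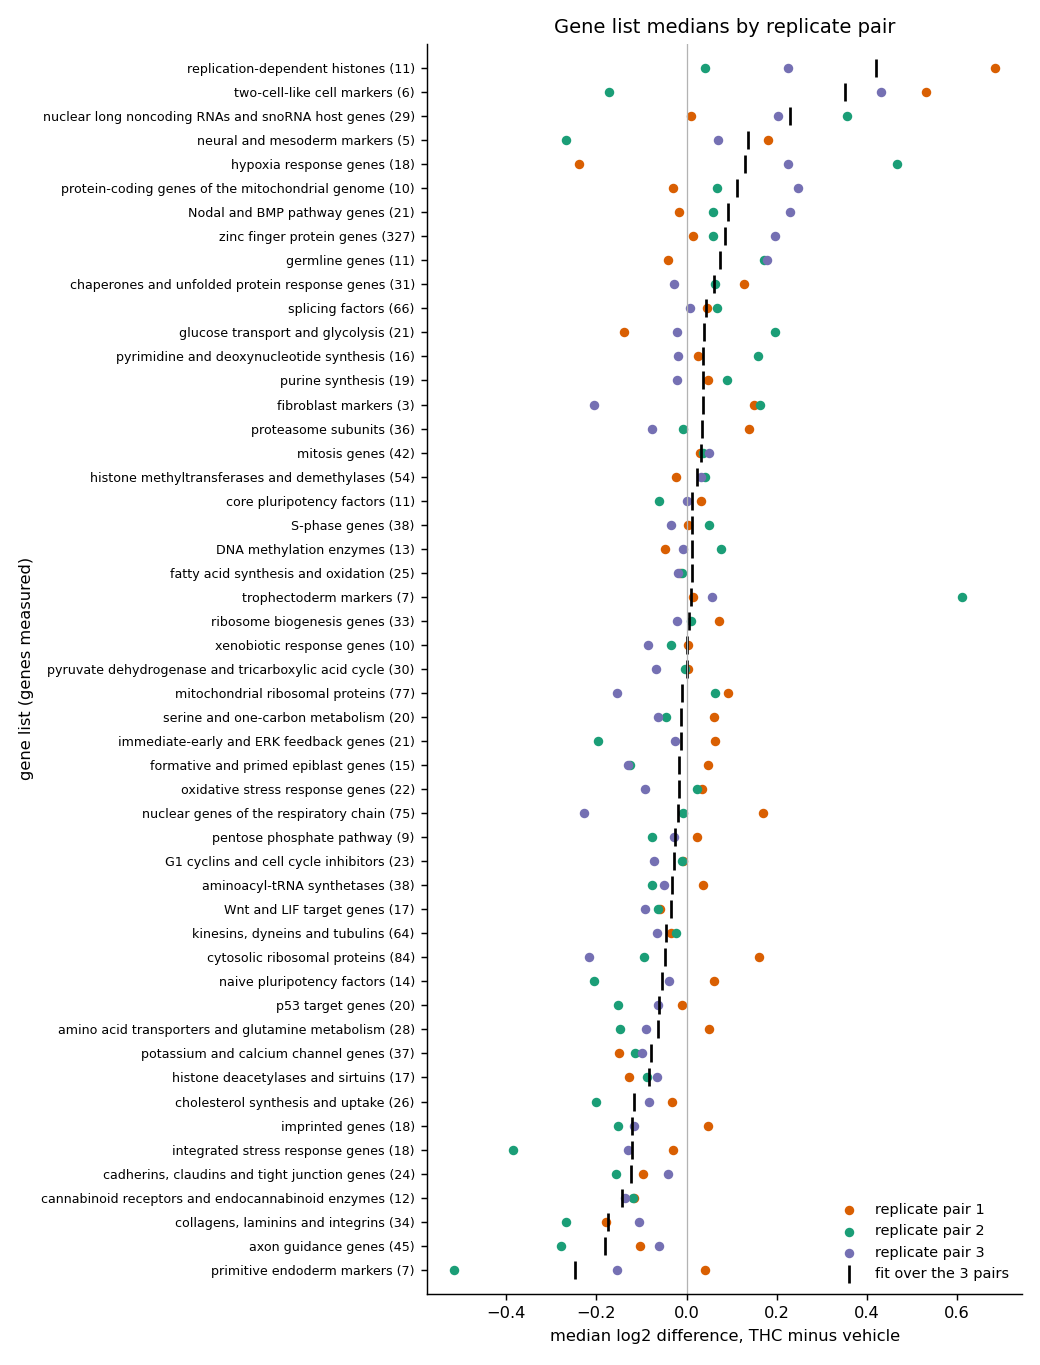
Median log2 difference between Δ9-THC and vehicle (horizontal axis) of each gene list (vertical axis, number of genes measured in parentheses), with a coloured point for each replicate pair and a black bar for the blocked fit. Collagens and axon guidance genes lie below 0 in each pair, while hypoxia response genes and cytosolic ribosomal proteins change side between pair 1 and pair 3.

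Hypoxia response genes, targets of HIF1 that turn cells toward glycolysis, had differences of opposite sign between the pairs. With the mirroring, each such difference holds the deviation of a library and the opposite one of its partner. The pairs are thus not separate responses to Δ9-THC, and the part of the mirroring in these signs was not tested. Over the 18 measured members the pair medians were -0.24, 0.47 and 0.23, and 12 of them were lower in pair 1 and higher in both other pairs, a pattern of 1970 of all 13104 genes. Bnip3, a mitophagy receptor, had 26.2, 12.9 and 17.9 CPM with vehicle and 20.5, 37.8 and 31.6 CPM with Δ9-THC. Vehicle replicate 1 was thus above Δ9-THC replicate 1 while the other Δ9-THC libraries were well above their partners, and the log2(fold-change) was 0.67 (unadjusted p = 0.0164). Pdk1, which holds pyruvate out of the tricarboxylic acid cycle, had 105, 79.2 and 88.3 CPM with vehicle and 96.7, 126 and 116 CPM with Δ9-THC (0.32, unadjusted p = 0.0148). The glucose transporter gene Slc2a1, chosen after its values were seen, had 329.9, 225 and 283 CPM against 268, 378 and 319 CPM (0.21, unadjusted p = 0.153), with the same crossing in replicate 1.

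Genes of the integrated stress response, which ATF4 switches on when translation is throttled, leaned the other way. Of 18 measured members 8 were lower and none higher at an unadjusted p under 0.05, beside 4.92% and 6.17% of all genes, with a median of -0.12 and pair medians of -0.031, -0.38 and -0.13. Cbs, an enzyme of transsulfuration, had 29.0, 32.8 and 29.5 CPM with vehicle and 25.2, 22.1 and 24.9 CPM with Δ9-THC (-0.34, unadjusted p = 0.0049). Its groups did not overlap. Cebpb, a partner of ATF4, had 3.99, 5.51 and 5.33 CPM against 3.77, 2.48 and 2.56 CPM (-0.76, unadjusted p = 0.0066). Gdf15 (-0.36), Atf5 (-0.47), Trib3 (-0.31), Ddit3 (-0.40), Chac1 (-0.27) and Sesn2 (-0.26) completed the 8, and with the offsets 4 members were lower at that p, with a list median of -0.15.

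The number of genes that passed depended on replicate 1. Without it, edgeR's quasi-likelihood test with the block on the remaining 2 pairs called 396 genes higher (3.02%) and 175 lower (1.34%), against 5 higher with all 3 pairs. Of these 571 genes, 254 had the same direction in pair 1, and their pair 1 medians were -0.012 for the genes called higher (0.40 in the fit without replicate 1) and 0.016 for those called lower (-0.42). Among the hypoxia response genes 9 were called higher without replicate 1, led by Bnip3 (1.18, adjusted p = 1.73e-06) and Pdk1 (0.53, adjusted p = 0.000198), with none lower. Of the integrated stress response genes 6 were called lower and 1 higher, of the glycolysis list 4 higher, of the ribosomal proteins 17 lower and of the zinc finger genes 31 higher. The 571 genes and the 906 called without a block shared 103.

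**Figure D5:**
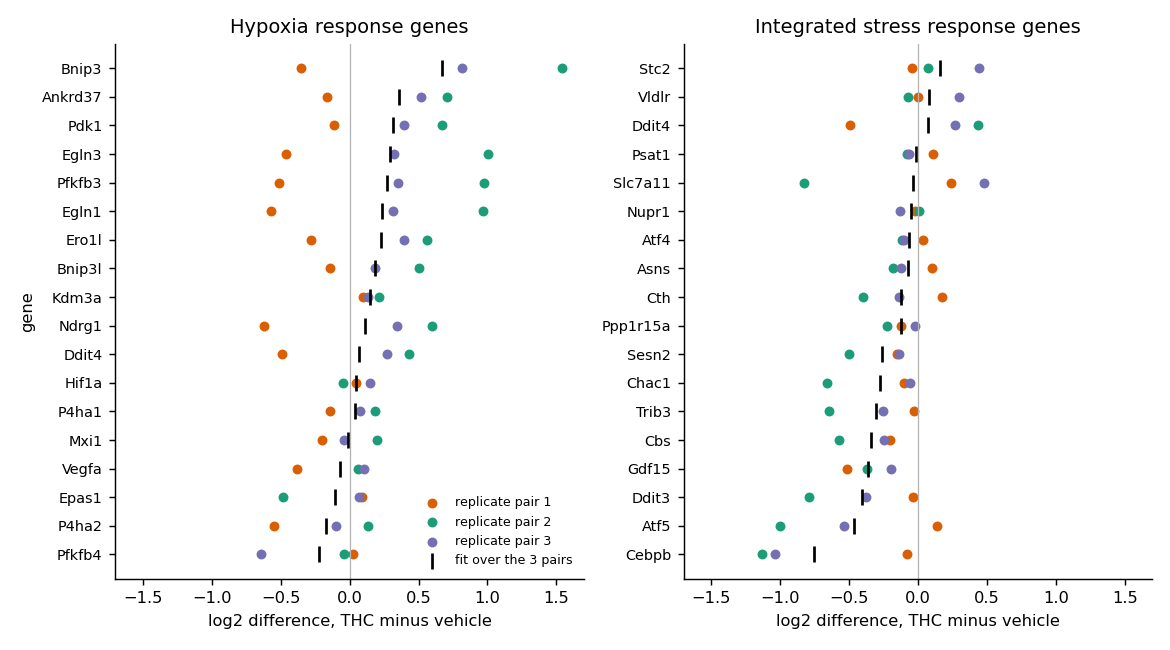
Log2 difference between the same-numbered Δ9-THC and vehicle libraries (horizontal axis) for each hypoxia response gene and each integrated stress response gene (vertical axes), with a coloured point for each replicate pair and a black bar for the blocked fit. In most hypoxia genes pair 1 (orange) lies left of 0 and the other pairs right of it, with medians of -0.24, 0.47 and 0.23.

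Among pluripotency factors, Sox2 (0.01) and Nanog (0.02) had values close to 0. Pou5f1 had 329, 391 and 398 CPM with vehicle and 355, 299 and 295 CPM with Δ9-THC, so that replicate 1 went against the others (-0.24, unadjusted p = 0.0238). The naive factors Klf2 (-0.21) and Klf4 (-0.20) were lower at an unadjusted p under 0.05, but with the offsets they came to -0.045 (unadjusted p = 0.516) and -0.14 (unadjusted p = 0.118). Tdgf1, the Nodal co-receptor Cripto, was at 607, 518 and 556 CPM with vehicle against 590.4, 690.1 and 652 CPM with Δ9-THC (0.20). Here too the difference in replicate 1 had the opposite sign. The median over the 14 naive factors was -0.054, and none of their genes passed the adjusted test.

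Most receptors through which Δ9-THC is known to act were not among the genes tested. Of a list of 20 cannabinoid receptors, channels and endocannabinoid enzymes, 12 were measured. Cnr1 and Cnr2, which encode CB1 and CB2, were left out, as were Gpr55, Gpr18, Gpr119 and Trpv1. The absence of a gene from the count table does not show that the cells lack its protein. By Western blot, the paper reports CB1 in membrane extracts of ESCs. It also reports that the CB1 blocker rimonabant abolished the increase in ESC number with Δ9-THC. Trpv2, a cation channel that cannabinoids can open, had 1.58, 1.31 and 1.52 CPM with vehicle and 0.754, 1.04 and 0.922 CPM with Δ9-THC (-0.70, unadjusted p = 0.0346). Napepld, an enzyme of anandamide synthesis, had 30.4, 31.6 and 30.2 CPM against 34.9, 33.7 and 35.3 CPM (0.17, unadjusted p = 0.0697). Neither passed the adjusted test, and the median of the 12 genes was -0.14.

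Genes of chromatin enzymes that the study itself names for ESCs and EpiLCs were chosen on these samples, which makes their direction here no independent evidence. Hdac5, a class IIa histone deacetylase, had 35.0, 34.3 and 34.8 CPM with vehicle and 27.7, 28.4 and 28.1 CPM with Δ9-THC. The groups were apart with tight replicates, at -0.30 (unadjusted p = 0.0037, adjusted p = 0.414), and the value was -0.14 with the offsets, at a GC content of 59.8%. Hdac11 gave -0.63 (unadjusted p = 0.0156), and Rps6ka5, the histone kinase MSK1, gave 0.35 (unadjusted p = 0.0229). In ESCs Kmt2c (0.09), Tet2 (0.04), Mysm1 (0.15) and Dzip3 (0.18) had unadjusted p-values between 0.143 and 0.609. Of the 17 histone deacetylases and sirtuins 3 were lower and 1 higher at that p, with a median of -0.084 (-0.042 with the offsets), and of the 54 histone methyltransferases and demethylases 5 were higher and 4 lower, with a median of 0.023, beside 6.17% higher and 4.92% lower over all genes.

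The same contrast in EpiLCs gave no call by edgeR's quasi-likelihood test with the block (smallest adjusted p = 0.188, 291 genes at an unadjusted p under 0.05). Its p-values were adjusted over the 13717 genes in the count table of the EpiLCs. A test of the difference between the effects in ESCs and EpiLCs called 0 of the 12410 genes shared by the tables (0%), with 328 at an unadjusted p under 0.05 and a smallest adjusted p of 0.999. Lars2 had a log2(fold-change) of -0.12 in EpiLCs against 1.47 in ESCs, and the difference of 1.58 had an unadjusted p of 0.0012. In EpiLCs ENSMUSG00000119584 gave -0.38, ENSMUSG00002076161 -0.11, mt-Tp 0.053 and Malat1 -0.028. Tet2, by contrast, gave 0.46 in EpiLCs, and its difference of -0.44 had an unadjusted p of 0.0163. The tables were batch-adjusted separately, so that only changes within a table were set side by side.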

How the data were processed

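RNA-seq libraries of poly(A)-selected RNA from ESCs were prepared by the authors with 1 of 2 kits (which kit gave which library is not given in the sources used here) and demultiplexed with bcl2fastq 2.19.1.403. Per the study's methods, reads were checked with FastQC and aligned with STAR, keeping uniquely mapped reads only. The genome build is named both as mm10 and as GRCm39. Reads over exons were counted with HTSeq in union mode without strand, genes with 10 or fewer counts were removed, and ComBat-seq was applied for batches that are not named. Whether the replicate number was the batch is not given in the sources used here. The deposited values are therefore counts, in whole numbers, after the authors' batch adjustment, so that differences between replicates that ComBat-seq ascribed to batches are no longer in them. The authors' own tables of fold changes and p-values (DESeq2), and the primordial germ cell-like cells, were not used here, and 0 columns of per-sample values were left over.

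From these counts, edgeR 4.0.16 (with limma 3.58.1, R 4.3.3) fitted a quasi-likelihood model with TMM factors, the group and the replicate number as a block, over genes with more than 10 counts in total, which all 13104 genes had. P-values are two-sided and adjusted over all genes by Benjamini-Hochberg at a threshold of 0.05. With the block they rest on the spread of the differences within pairs, in counts already adjusted for batches. They therefore do not measure the full spread between independent cultures. CPM values are scaled by TMM. Fitted log2 fold changes are Δ9-THC over vehicle with edgeR's default prior count. Differences within pairs were taken from log2 CPM with a prior count of 2, so they are not on exactly the same scale. The standard error was derived from the F statistic and the fold change. A further fit added per-library offsets from natural splines of GC content and exonic length (5 degrees of freedom each). GC content and positions came from GENCODE M21 (GRCm38), in which 19 gene identifiers had no entry and were used by identifier. ESCs and EpiLCs were compared in 1 model with their replicate numbers as blocks. The replicate numbers come from the sample titles. Same-numbered libraries correlated negatively in their deviations from the group means (-0.987 to -0.977), so the numbers mark libraries that mirror each other after the adjustment, and the block was kept for that reason.

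The genes named are those that passed the test, the largest increases and decreases (10 each) among genes with at least 50 counts per library on average, an unadjusted p of at most 0.05 and no overlap between groups, the same with the offsets (8 each), genes the study names, the 2 members of each list with the lowest p, marker genes and the 10 genes of highest level. The comparison and all lists were chosen with earlier results of these data known. Alternatives were no block, RLE normalization, a minimum of 10 counts in every library, no filter, DESeq2 1.42.0, the offsets with and without the block, GC offsets alone, splines of 3 degrees of freedom and each replicate left out. The GC content trend under the offsets and the left-out replicates was added after the data were seen. The edgeR tests with and without the block, DESeq2, the blocked fit with offsets and the difference test were first tried on simulated data. There the replicate effect was shared within a pair and no batch adjustment was made. The simulation thus did not hold the mirroring seen in these counts, and the other alternatives were not simulated. Tables and figures were made with Python 3.11.15, pandas 2.3.3, numpy 2.4.6 and matplotlib 3.10.9.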

Additional observations from a re-analysis of the deposited data

How the results depend on the processing

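The 5 calls, all higher, were 5 with RLE normalization, a minimum of 10 counts in every library or no filter. The numbers of calls in all, higher and lower, and of genes at an unadjusted p under 0.05 (1454 with the block), moved as follows. With no replicate block they were 906, 441, 465 and 3761, and the check of the pairing found deviations of same-numbered libraries that correlate negatively. DESeq2 with the block gave 10, 9, 1 and 813, with no adjusted p for most genes. GC content and length offsets gave 1, 1, 0 and 660 with the block and 0, 0, 0 and 2435 without it. Leaving out a replicate gave 4 to 571 calls, 4 to 396 higher, 0 to 175 lower and 574 to 2456 genes at that p, and the upper ends all came from leaving out replicate 1. The cause was not tested. Without replicate 2 the 5 calls were ENSMUSG00000119584, ENSMUSG00002076161, Lars2, mt-Tp and Gm10925, and without replicate 3 the 4 calls were the first 3 of these and mt-Rnr1.

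Net of GC content, Lars2 was the 1 call with 5 or 3 degrees of freedom, GC offsets alone called 3 genes (Lars2, mt-Tp and Mir6236), and the offsets without the block called 0, with 2435 genes at an unadjusted p under 0.05. The difference between ESCs and EpiLCs had 0 calls with the block, with or without offsets, and 4 with no replicate block (Myo6, Cul9 and Dzip1 lower in ESCs relative to EpiLCs, Zfp36 higher). The GC content trend of -0.537 was 0.0020 with the offsets, by their construction, and -0.579 to -0.383 with a replicate left out, the weakest without replicate 3. These causes, beyond the offsets, were not tested.

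Of 137 named genes a few changed sign. With the offsets, with and without the block, these were Tet2 (-0.0194 and -0.0195), Dzip3 (-0.0205 and -0.0213), Pdgfrb (0.0350 and 0.0364), Hprt (-0.0033 in both), Psmc6 (-0.0599 and -0.0602), mt-Co1 (-0.0977 and -0.0981) and Hsp90aa1 (-0.0502 and -0.0501). With a replicate left out, the ranges that crossed 0 were -0.0349 to 0.117 for Tet2, -0.0348 to 0.371 for Dzip3, -0.146 to 0.0236 for Pdgfrb and -0.0217 to 0.218 for mt-Co1, all turning without replicate 3, and -0.0118 to 0.0416 for Hsp90ab1, turning without replicate 2. None of them passed the test with all replicates. Of 51 list medians, 12 moved by more than the spread between pairs with the offsets and the block, and 6, 4 and 5 without replicates 1, 2 and 3. With 3 libraries a group, the standard errors of the 5 called genes were 0.06 to 0.24 on the log2 scale, which limits how small a change can be told from the spread.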

Other observations

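The 12058 protein-coding genes had a median log2(fold-change) of -0.0013, while the 234 lincRNA genes had one of 0.11, with 24 higher and 4 lower at an unadjusted p under 0.05 in the blocked fit, beside 6.17% and 4.92% of all genes. The 10 snoRNA genes were all higher, with a median of 0.38 and 2 at that p. Of 354 processed pseudogenes 27 were higher and 1 lower at that p, with a median of 0.074. The median GC content was 49.8% for protein-coding genes, 47.0% for lincRNA genes, 43.5% for snoRNA genes and 49.9% for processed pseudogenes. AC121821.1, noted after its values were seen, had 10.4, 7.22 and 8.44 CPM with vehicle and 12.1, 16.6 and 14.97 CPM with Δ9-THC (log2(fold-change) 0.75, adjusted p = 0.414).

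Bbc3, the p53 target PUMA that promotes apoptosis, had 13.4, 14.7 and 12.5 CPM with vehicle and 9.09, 8.20 and 9.85 CPM with Δ9-THC, without overlap (-0.58, unadjusted p = 0.00080, adjusted p = 0.414). In a principal component analysis the first component held 47.2% of the variance, and replicate pair 1 lay near 0 on it.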
